A study of Mus musculus with 12 samples.

Results

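The 10 genes described here act in DNA methylation, in histone H3 lysine 9 (H3K9) methylation or in the silencing of retroelements. They are Dnmt1, Uhrf1, Dnmt3a, Dnmt3b, Trim28, Setdb1, Atf7ip, Suv39h1, Suv39h2 and Morc3. They were taken by gene symbol from the gene tables of 12 RNA-seq libraries, 10 genes of 55573 in all, and each passed the filter on low counts. The rule names genes and holds no threshold on a measured value.

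The cells were mouse embryonic fibroblasts made immortal with the SV40 large T antigen. One line was Fadd-/-Mlkl-/- and the other Casp8-/-Mlkl-/-, so both the knockout and the restored groups lacked Mlkl, which encodes the pore-forming protein of necroptosis. Each line was sequenced with and without its missing gene, Fadd or Casp8, put back by ectopic re-expression. This gave 4 groups of 3 libraries from untreated cells harvested 24 h after plating. Fadd is an adaptor and Casp8 a protease of death receptor signalling. The 3 libraries of a group are numbered replicates of 1 line, so the spread is not that of animals. What the replicate number marks is not stated in the labels. The sources used here do not say whether a line was 1 clone. Within a line, presence of the gene cannot be told apart from the history of the cells it was put back into. Because both lines differ in origin as well as in genotype, line and genotype cannot be told apart in a comparison of the lines.

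Retroelements, the remains of viruses and mobile elements in the genome, are kept silent by repressive marks on DNA and on histones. In the best known route, zinc finger proteins bring TRIM28 to the element, TRIM28 brings SETDB1 with its partner ATF7IP, and SETDB1 trimethylates H3K9. SUV39H1 and SUV39H2 place the same mark in pericentric heterochromatin and at some retroelements, DNMT1 with UHRF1 copies DNA methylation after replication, and DNMT3A and DNMT3B add it anew.

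Library totals ran from 33918359 to 59388559 counts, so each member rested on 152 or more counts in every library. Fadd was at 0.0999 ± 0.0704 counts scaled to library size (CPM; SD, n = 3) in the Fadd knockout and at 23.7 ± 3.96 CPM where it was put back, against 10.4 ± 1.53 and 9.65 ± 0.963 CPM in the 2 groups of the Casp8 line. Casp8 was at 11.3 ± 1.01 CPM in the Casp8 knockout and at 141 ± 63.4 CPM where it was put back. Both genes were thus higher where they were put back, as labelled. Casp8 RNA was still counted in the Casp8 knockout, so these counts do not by themselves show its loss. Among the fibroblast markers, Vim was high throughout, but Thy1 and Lum were at or near 0, and the collagen gene Col1a2 was lower in the Fadd knockout than where Fadd was put back (log2 change -7.70, edgeR adjusted p = 0.000557). The summed level of 6 leukocyte markers was at most 2.00 TPM (transcript level scaled to library size and gene length) and that of 4 endothelial markers at most 0.15 TPM in any library, with the muscle list at most 0.67 TPM and the neural list between 4.56 and 63.8 TPM. Both libraries numbered 1 of the Casp8 line stood apart, for example in Ddx3y, a gene of the Y chromosome, which was at 24.1 and 61.7 CPM in them and at 112 to 134 CPM in the other 4 of that line. The Fadd line held 2 counts of Ddx3y in all.

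Promoter windows of 3 members are shown, because one member changed and because the maintenance pair DNMT1 and UHRF1 is tied to replication. Each runs from 250 bases before a RefSeq start to 50 bases after it, on the strand of the gene, from RefSeq's table for build GRCm38.p6. All 10 members had a window in that table, 16 windows in all, and Dnmt1 had 3, Uhrf1 2 and Suv39h1 2; the windows printed are those that hold motifs, the E2F motifs for Dnmt1 and Uhrf1. Suv39h1 is at chrX:8074711-8075010, minus strand, Dnmt1 at chr9:20952574-20952873, minus strand, and Uhrf1 at chr17:56304063-56304362, plus strand. Capitals mark the letters of 4 searched motifs on either strand: the E2F motifs TTTCGCGC and TTTGGCGC, the CCAAT box, and the core of the interferon-stimulated response element (TTTC, any 2 bases, TTTC).
Suv39h1: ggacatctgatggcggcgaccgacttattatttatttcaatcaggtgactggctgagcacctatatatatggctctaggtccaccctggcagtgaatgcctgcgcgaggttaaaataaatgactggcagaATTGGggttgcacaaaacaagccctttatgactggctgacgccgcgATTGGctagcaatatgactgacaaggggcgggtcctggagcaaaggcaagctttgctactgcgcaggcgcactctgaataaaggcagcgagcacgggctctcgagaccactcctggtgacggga
Dnmt1: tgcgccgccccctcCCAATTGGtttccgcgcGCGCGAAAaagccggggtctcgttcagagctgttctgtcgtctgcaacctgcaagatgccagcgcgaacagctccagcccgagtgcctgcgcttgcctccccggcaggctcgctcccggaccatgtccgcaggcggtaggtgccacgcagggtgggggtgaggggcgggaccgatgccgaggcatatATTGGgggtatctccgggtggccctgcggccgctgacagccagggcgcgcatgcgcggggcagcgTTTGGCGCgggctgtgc
Uhrf1: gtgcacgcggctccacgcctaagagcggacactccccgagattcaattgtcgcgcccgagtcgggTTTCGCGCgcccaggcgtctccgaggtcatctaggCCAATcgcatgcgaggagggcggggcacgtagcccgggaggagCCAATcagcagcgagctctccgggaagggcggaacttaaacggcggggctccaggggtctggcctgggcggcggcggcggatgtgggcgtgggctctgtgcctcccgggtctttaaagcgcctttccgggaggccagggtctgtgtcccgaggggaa
Counted by window, TTTCGCGC lay in 2 of the 16 member windows, those printed for Dnmt1 and Uhrf1, and in 0.323% of all 32851 promoters of 300 bases. TTTGGCGC lay in 1 of the 16, that of Dnmt1, and in 0.514% of all promoters. In that window TTTGGCGC began at base 284, past the RefSeq start. In the Dnmt1 window the CCAAT letters of both strands overlap. CCAAT lay in 8 of the 16 windows, in 6 members, and in 37.4% of all promoters. The interferon-stimulated core lay in 0 of the 16 windows and in 3.44% of all promoters. The windows of Dnmt1 and Uhrf1 not printed hold neither E2F motif, and the other Suv39h1 window, with 37 CpG, holds none of the 4 motifs. These matches describe letters and were not tested as sites.

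On the TPM scale, which is per length and so allows levels of different genes to be set side by side, the means over 12 libraries fell in a wide order. Trim28, the scaffold of the silencing complex, led with 187 TPM, followed by Uhrf1 with 73.2 and Dnmt1 with 43.6 TPM. Morc3 and Suv39h1 came next with 21.8 and 19.5 TPM, then Setdb1 with 12.1, Suv39h2 with 7.18, Atf7ip with 5.45, Dnmt3a with 4.01 and Dnmt3b with 1.01 TPM. The 3 highest kept their order in every library. Morc3 was below Suv39h1 in 4 libraries, Suv39h1 below Setdb1 in 1, Suv39h2 below Atf7ip in 4 and Atf7ip below Dnmt3a in 1, so these neighbours in the order are not separated by the spread between libraries.

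**Figure D1:**
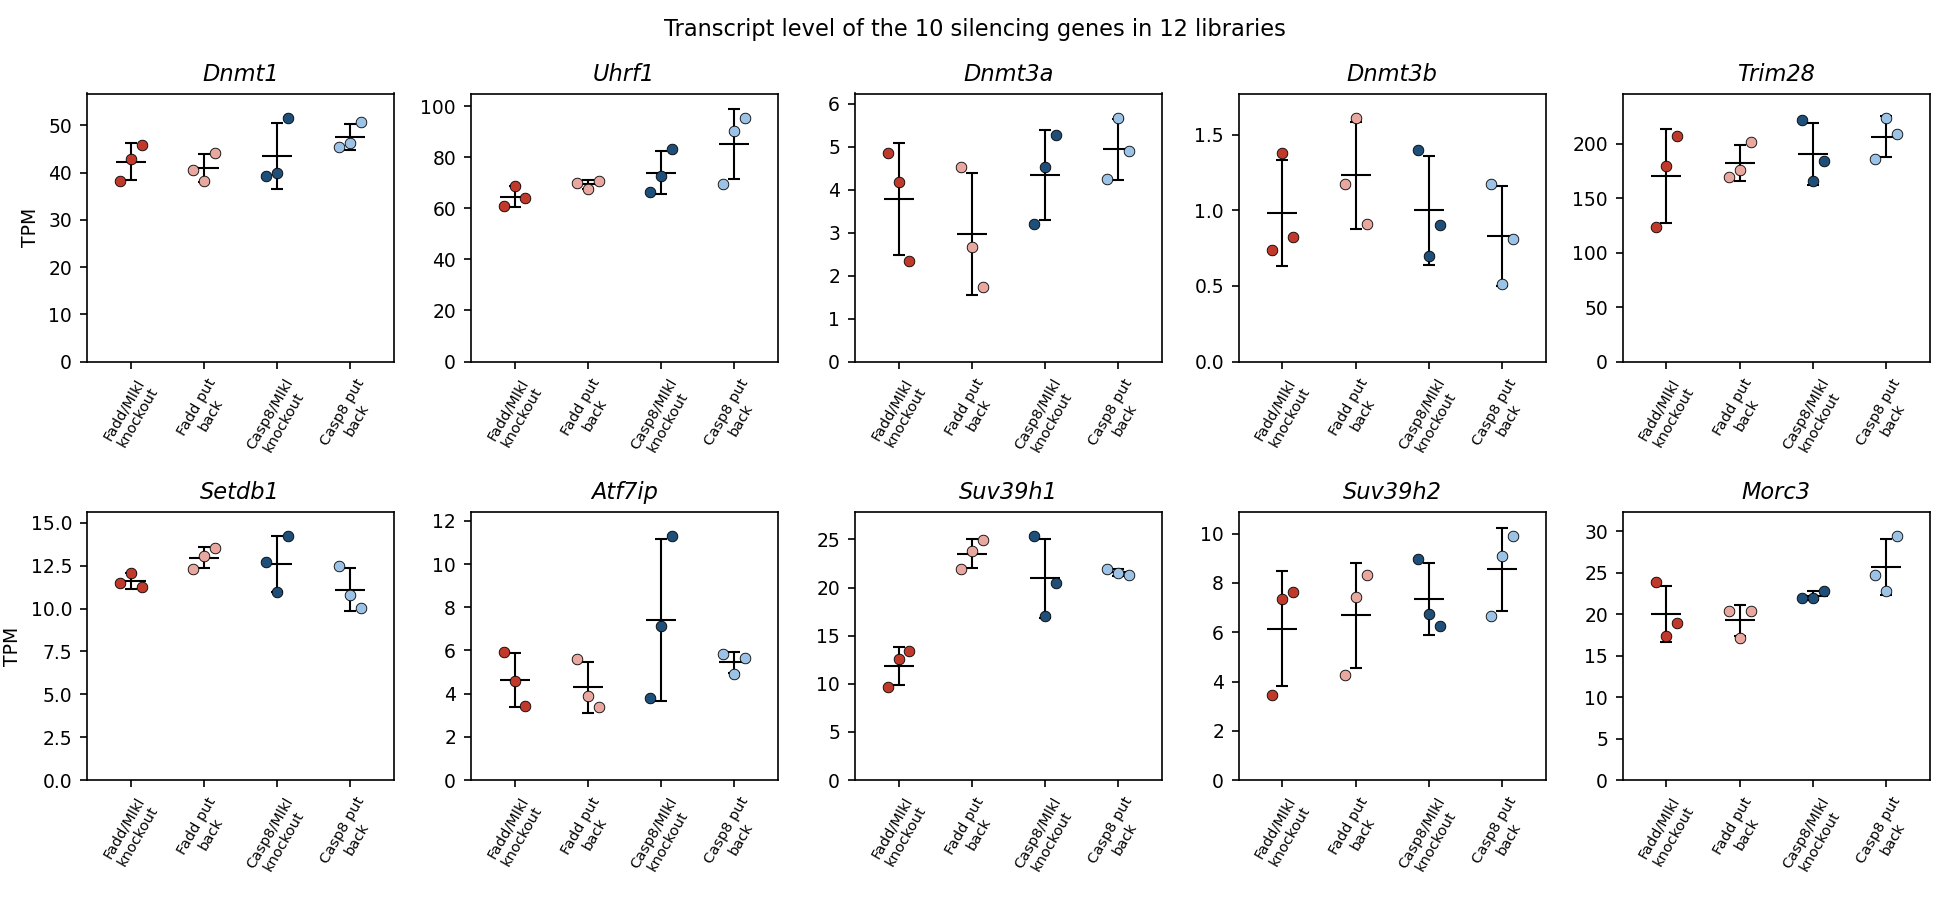
Transcript level (TPM, vertical axis from 0) of the 10 genes in each of 12 libraries. Points are libraries in replicate order, bars are means ± SD over 3 libraries. Suv39h1 is at 9.66 to 13.43 TPM in the Fadd knockout and at 17.09 to 25.32 TPM in the other 9 libraries, and in 8 of the other 9 genes the Fadd knockout overlaps the group with Fadd put back. Setdb1 is the exception in TPM, at 11.23 to 12.10 against 12.30 to 13.51 TPM, but its groups overlap in log2 CPM. On log2 CPM 1 of the 10 genes, Suv39h1, does not overlap in the Fadd line, against 16.5% of all genes. No such share was computed on TPM.

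The first comparison asked which of the genes differed between the Fadd knockout and the cells with Fadd put back. Of the 10 members, only Suv39h1 passed the test, and it was lower in the knockout. In edgeR's quasi-likelihood test with Benjamini-Hochberg adjustment over 16396 genes, 1.52% of all genes were called at an adjusted p under 0.05 and 1.24% were called lower. In the same line 6 members lay above 0 and 4 below, with a median log2 change of 0.03, against 0.00 over all genes.

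Suv39h1, an H3K9 methyltransferase of heterochromatin (ENSMUSG00000039231.18, chrX:8061171-8074760, minus strand), stood at 9.66, 12.57 and 13.43 TPM in the 3 Fadd knockout libraries. Where Fadd was put back it stood at 21.93, 23.76 and 24.90 TPM. The knockout libraries were the 3 lowest of all 12 and did not overlap any other group. The log2 change was -0.89 (SE 0.17, 95% interval -1.27 to -0.51), a level 0.538 times that of the restored group, with an edgeR adjusted p of 0.0290 and all 3 knockout libraries below all 3 restored ones. The call did not hold when any 1 of the 6 Fadd-line libraries was left out, nor without library 2 or 3 of the restored Casp8 group (the highest edgeR adjusted p was 0.117), while the log2 change stayed between -1.01 and -0.79. It held with DESeq2 (adjusted p = 7.89e-05, 4.25% of genes called), with the replicate number as a block within each line (edgeR adjusted p = 0.0228, 2.71% called) and without all 4 libraries numbered 1 (edgeR adjusted p = 0.00358, 6.1% called). The summed level of 6 epithelial markers was 0.38 to 2.10 TPM in the Fadd knockout and 2.68 to 15.8 TPM where Fadd was put back, with Krt5 at 0, and that of 10 fibroblast markers was 1122 to 1607 against 1667 to 1830 TPM; their part in the result was not tested. In these bulk libraries fewer cells of a type and less RNA per cell cannot be told apart. By non-overlap of log2 CPM, 1 of 10 members was separated in this line, against 16.5% of all genes.

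The Casp8 line held no such difference. Suv39h1 stood at 25.32, 17.09 and 20.47 TPM in the Casp8 knockout and at 21.98, 21.50 and 21.31 TPM where Casp8 was put back. The knockout libraries lay on both sides of the restored ones. The log2 change was -0.03 (95% interval -0.41 to 0.34, edgeR adjusted p = 0.999). The difference between both knockout effects was -0.86 on the log2 scale (SE 0.24, 95% interval -1.39 to -0.32), with an unadjusted p of 0.00465 and an edgeR adjusted p of 0.214, where 0.842% of genes were called. DESeq2 called this difference (adjusted p = 0.0287, with 2.56% of genes called), as did edgeR without the libraries numbered 1 (adjusted p = 0.0353, with 11.2% called). The other 17 of 19 alternatives did not call it, with an edgeR adjusted p of up to 0.470.

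**Figure D2:**
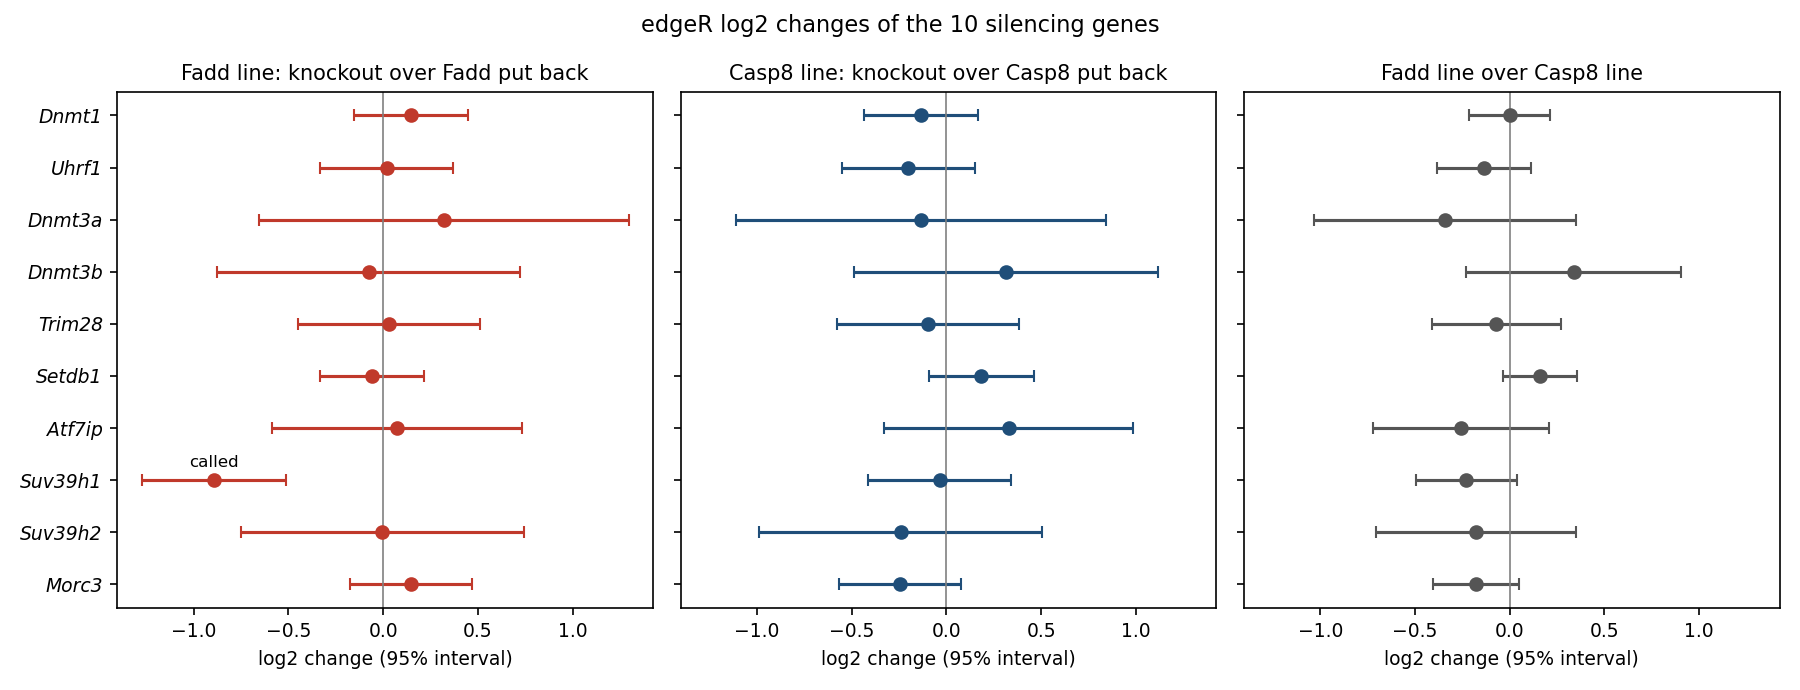
Fitted log2 changes of the 10 genes (horizontal axis) with 95% intervals, for both knockouts and for the comparison of the lines. The fit has no replicate block. Of the 30 intervals drawn, the one of Suv39h1 in the Fadd line, from -1.27 to -0.51, is the only one that leaves out 0.

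Suv39h1 was not alone at its place in the genome. The genes around it on chromosome X were also lower in the Fadd knockout, a pattern seen in these data and described here with no test. Within 5 Mb on either side, 50 other genes were tested, 45 of them had a log2 change below 0, and the median was -0.84, close to the -0.89 of Suv39h1 itself. Of those 50 genes 15 were called lower, or 30%, against 1.24% of all genes. In the Casp8 line the median of the same 50 genes was -0.07, with 0 called.

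The stretch was wider than that window. The limit of 30 Mb used next was set with these changes in view. In the first 30 Mb of chromosome X, 82 genes other than Suv39h1 were tested, 73 had a log2 change below 0, and the median of -0.87 equals a level 0.547 times that of the restored group. Called lower were 21 of them, and 0 were called higher. Medians in successive stretches of 10 Mb were -0.87, -0.80 and -0.89, and the next was 0.08. Beyond 30 Mb, 435 genes of the chromosome had a median of 0.04, with 10 called lower, and 15868 genes of the other chromosomes had a median of 0.00, with 168 called lower and 47 higher. With Suv39h1, the first 30 Mb held 22 of the 203 genes called lower in the Fadd line. In the Casp8 line the 82 genes had a median of -0.04, with 0 called.

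Single genes of this stretch varied. Over the 50 neighbours within 5 Mb the log2 changes ran from -7.82 to 0.92, with quartiles of -1.03 and -0.58. The next 2 genes are named because their levels over the 12 libraries were most like those of Suv39h1, so a change of like size is part of the choice. Pqbp1, which encodes a polyglutamine-binding protein and lies 167 kb below Suv39h1, had a log2 change of -0.83 (SE 0.15, edgeR adjusted p = 0.0174). Gripap1, 271 kb below Suv39h1, had a log2 change of -1.04 (SE 0.15, edgeR adjusted p = 0.00584). Chosen after their values were seen, 2 further chromatin genes there had similar estimates without passing the test: Hdac6, a deacetylase acting mainly in the cytoplasm, at -0.97 (edgeR adjusted p = 0.170) and Kdm6a, an H3K27 demethylase, at -0.75 (edgeR adjusted p = 0.150). Wdr44 at 23.7 Mb had a log2 change of -0.68, and Dock11 at 35.9 Mb one of 0.22. Neither passed the test (edgeR adjusted p = 0.105 and 0.949). No gene was tested between Wdr44 and Gm2223, which lie 15.6 and 25.4 Mb above Suv39h1. The end of the stretch is therefore not placed more closely.

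**Figure D3:**
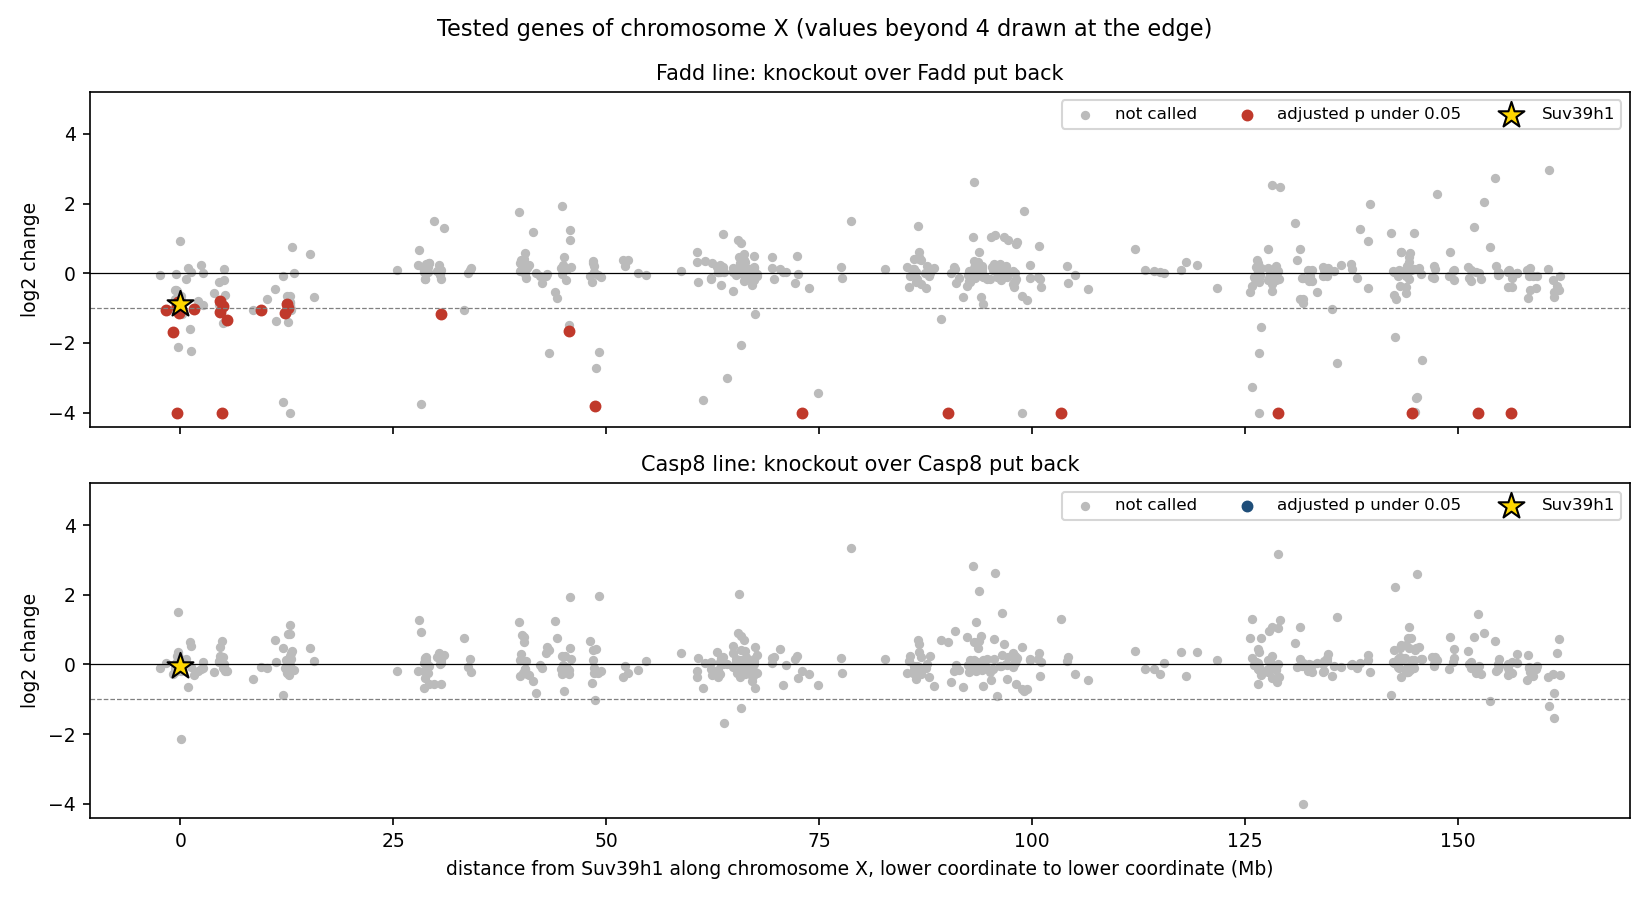
Log2 change (vertical axis) of every tested gene of chromosome X against its distance from Suv39h1 in Mb, in the Fadd line above and the Casp8 line below. Coloured points passed an adjusted p of 0.05, and values beyond 4 are drawn at the edge. In the upper panel the genes near Suv39h1 lie mostly below 0, with a median of -0.84 within 5 Mb, and in the lower panel they scatter around 0.

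In the Fadd line, Suv39h1 and its neighbours were both lower in each knockout library than in every library with Fadd put back. Relative to the mean of the 6 Casp8-line libraries in log2 CPM, Suv39h1 stood at -0.90, -0.66 and -0.47 in the Fadd knockout libraries and the median of its 50 neighbours at -0.86, -0.72 and -0.72. Where Fadd was put back, Suv39h1 stood at 0.10, 0.23 and 0.34 and its neighbours at 0.01, 0.09 and 0.10. The rest of the chromosome stayed between -0.10 and 0.15 in the knockout libraries. In the Casp8 line Suv39h1 stood at 0.32, -0.19 and -0.21 in the knockout and at -0.01, 0.06 and 0.04 where Casp8 was put back, and its neighbours at 0.04, -0.03 and -0.04 and at 0.16, -0.06 and -0.06. In that line both lay on either side of 0, with opposite signs in the 3 restored libraries. The libraries hold RNA, and DNA was not measured.

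**Figure D4:**
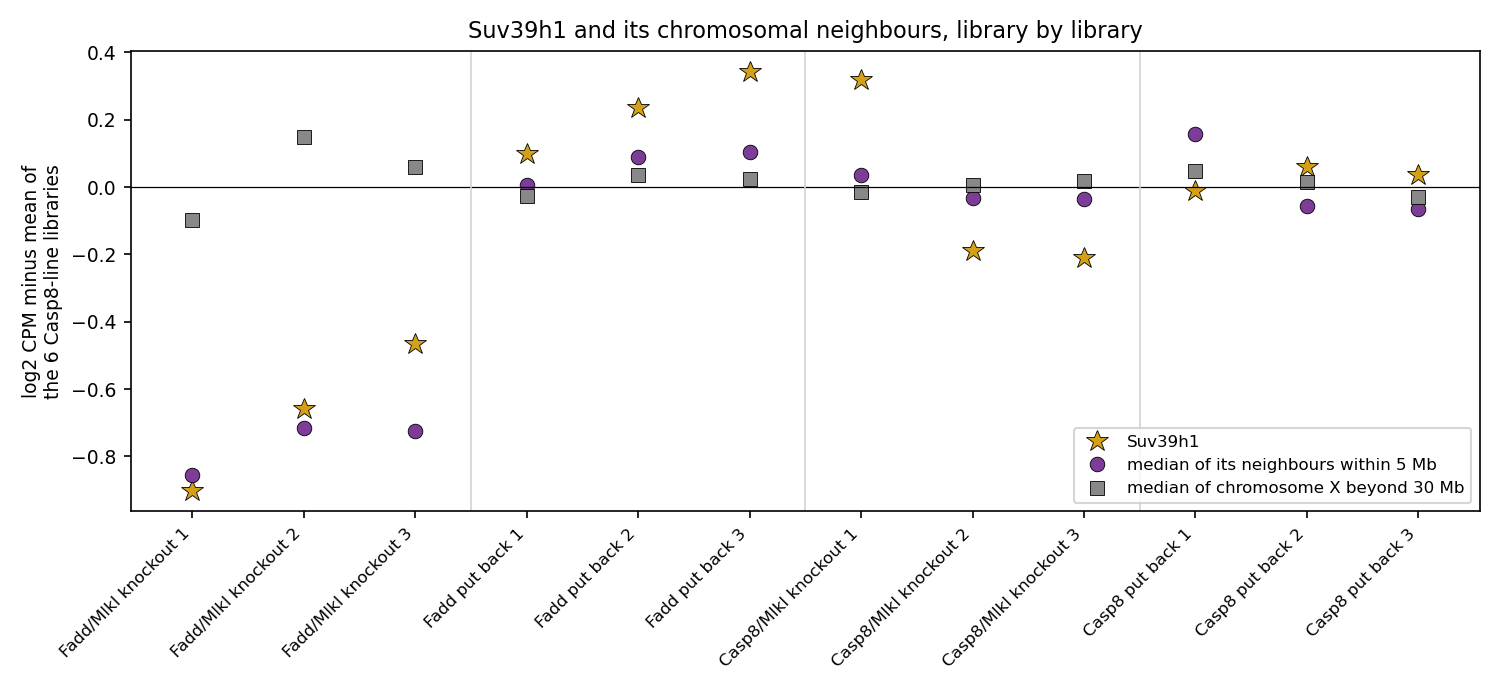
Log2 CPM of Suv39h1 (stars), the median of its 50 neighbours within 5 Mb (circles) and the median of 435 genes of chromosome X beyond 30 Mb (squares) in each library, relative to the mean of the 6 Casp8-line libraries. In the 3 Fadd knockout libraries stars and circles lie between -0.90 and -0.47, and the squares between -0.10 and 0.15.

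The other 9 members lie on chromosomes 2, 3, 6, 7, 9, 12, 16 and 17. With the same window of 5 Mb, they had between 27 and 153 tested neighbours each, whose medians in the Fadd line lay between -0.21 and 0.13. Of these 660 neighbours 5 were called lower and 0 higher, where 1.24% of all genes were called lower. Signs were uneven around some of these members too. Near Morc3 52 neighbours lay below 0 and 13 above, near Dnmt3b 104 and 34, and near Dnmt3a 7 and 26.

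The genes most like Suv39h1 were found by the Pearson correlation of log2 CPM over the 12 libraries, given as a description. Pqbp1 was first with r = 0.969 and Gripap1 at rank 3 with r = 0.932. Between them stood Ube2z, which encodes a ubiquitin-conjugating enzyme on chromosome 11, with r = 0.950, and its own log2 change in the Fadd line was -0.46 (edgeR adjusted p = 0.155). The 12 libraries of these correlations share lines and groups.

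Suv39h2, the other enzyme of the pair (ENSMUSG00000026646.16, chr2:3455815-3475031, minus strand), did not pass the test in either line. It stood at 3.47, 7.33 and 7.64 TPM in the Fadd knockout and at 4.28, 7.42 and 8.34 TPM where Fadd was put back, and the library numbered 1 was the lowest of both groups. The log2 change was 0.00 (95% interval -0.75 to 0.74, edgeR adjusted p = 1). With Casp8 as the missing gene it stood at 8.99, 6.76 and 6.26 TPM in the knockout and at 6.67, 9.11 and 9.89 TPM where Casp8 was put back, with a log2 change of -0.24 (95% interval -0.99 to 0.50, edgeR adjusted p = 0.999). Without the libraries numbered 1 the Casp8-line change was -0.59 and was called (edgeR adjusted p = 0.0249), in a fit that called 17.8% of all genes.

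The share of Suv39h1 in the summed TPM of the pair was 66.8% ± 5.85 (SD, n = 3) in the Fadd knockout and 78.3% ± 4.73 (SD, n = 3) where Fadd was put back. The single values were 73.6%, 63.2% and 63.7% against 83.7%, 76.2% and 74.9%, so the groups did not overlap. In an exact two-sided permutation test p was 0.1, and 3 libraries against 3 can give no smaller value. The share in the Casp8 line was 74.0% ± 2.47 against 71.8% ± 4.41 (exact permutation p = 0.5, n = 3 each). Suv39h1 made up the larger part of the pair in all 12 libraries.

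Dnmt1, the maintenance methyltransferase (ENSMUSG00000004099.16, chr9:20907209-20959888, minus strand), stood at 38.13, 42.82 and 45.93 TPM in the Fadd knockout and at 40.50, 38.30 and 44.15 TPM with Fadd put back. These groups overlapped over nearly their whole range. The fitted log2 change was 0.15 (95% interval -0.15 to 0.45, edgeR adjusted p = 0.922). Values of the Casp8 line were 39.22, 39.90 and 51.58 TPM in the knockout against 45.45, 46.33 and 50.72 TPM, with a log2 change of -0.14 (95% interval -0.44 to 0.17, edgeR adjusted p = 0.999). The intervals leave room for a level 1.37 times that of the restored group in the Fadd line and for one 0.738 times it in the Casp8 line. Dnmt1 had the narrowest spread of the members, with the highest library 1.35 times the lowest.

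Uhrf1, which reads hemimethylated DNA and brings DNMT1 to it (ENSMUSG00000001228.14, chr17:56303321-56323486, plus strand), stood at 60.71, 68.83 and 63.96 TPM in the Fadd knockout and at 69.88, 67.48 and 70.62 TPM with Fadd put back. The fitted change was 0.02 on the log2 scale (95% interval -0.33 to 0.37, edgeR adjusted p = 1). The TPM values overlapped. The Casp8 line held 66.47, 72.47 and 82.99 TPM in the knockout and at 69.56, 90.17 and 95.36 TPM where Casp8 was put back, with a log2 change of -0.20 (95% interval -0.55 to 0.15, edgeR adjusted p = 0.974). In both groups of the Casp8 line the library numbered 1 was the lowest.

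Both de novo enzymes were low. Dnmt3a (ENSMUSG00000020661.15, chr12:3806007-3914443, plus strand) stood at 4.85, 4.17 and 2.34 TPM in the Fadd knockout and at 4.52, 2.66 and 1.74 TPM with Fadd put back. Within each group the library numbered 1 was the highest and the one numbered 3 the lowest, so libraries of the same number moved together. The log2 change was 0.32 (95% interval -0.66 to 1.30, edgeR adjusted p = 0.984) in the fit without a replicate block. The knockout was the higher in all 3 pairs of the same number. With the replicate number as a block within each line the change was 0.44 (SE 0.15, edgeR adjusted p = 0.190), also not called. Dnmt3a in the Casp8 line stood at 3.21, 4.52 and 5.28 TPM against 4.24, 5.67 and 4.90 TPM, with a log2 change of -0.13 (95% interval -1.11 to 0.84, edgeR adjusted p = 0.999).

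Dnmt3b (ENSMUSG00000027478.15, chr2:153649450-153687730, plus strand) stood at 0.74, 1.38 and 0.82 TPM in the Fadd knockout and at 1.17, 1.61 and 0.91 TPM with Fadd put back. Its values in the Casp8 line were 1.40, 0.70 and 0.90 TPM against 1.17, 0.51 and 0.81 TPM. The log2 changes were -0.08 (95% interval -0.88 to 0.72, edgeR adjusted p = 1) and 0.31 (95% interval -0.49 to 1.12, edgeR adjusted p = 0.999). Dnmt3b was the lowest member in every library. These intervals were the widest after those of Dnmt3a, and they allow a level up to 1.65 times that of the restored group in the Fadd line and 2.17 times in the Casp8 line.

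Dnmt3a made up most of the summed TPM of DNMT3A and DNMT3B transcripts in all 12 libraries. Its share was 78.6% ± 7.05 in the Fadd knockout against 69.1% ± 9.08 with Fadd put back (exact permutation p = 0.3, SD, n = 3 each), and 80.6% ± 9.48 against 85.3% ± 6.70 in the Casp8 line (exact permutation p = 0.6, n = 3 each). Over both groups of a line it was 73.9% ± 8.95 in the Fadd line and 82.9% ± 7.79 in the Casp8 line (exact permutation p = 0.0952, n = 6 each). That difference of -9.04 percentage points ranged over -11.7 to -6.72 when 1 of the 12 libraries was left out (exact permutation p from 0.0346 to 0.186). It was -11.7 without library 1 of the Casp8 knockout (exact permutation p = 0.0390). Without library 1 of the Fadd knockout it was -11.6 (exact permutation p = 0.0346). The 6 libraries come from 1 line in both its groups, so this p does not measure a spread between lines. The shares of Suv39h1 in its pair were 72.5% ± 7.87 in the Fadd line and 72.9% ± 3.43 in the Casp8 line (exact permutation p = 0.920, n = 6 each).

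Trim28, the scaffold that zinc finger proteins recruit (ENSMUSG00000005566.14, chr7:12999114-13031035, plus strand), stood at 123.07, 179.45 and 207.35 TPM in the Fadd knockout and at 169.29, 175.83 and 201.24 TPM with Fadd put back. The lowest library was knockout 1, and the other knockout libraries lay within or above the restored range. This gave a log2 change of 0.03 (95% interval -0.45 to 0.51, edgeR adjusted p = 1). Trim28 in the Casp8 line stood at 221.78, 165.63 and 184.31 TPM against 185.97, 223.54 and 208.90 TPM, with a log2 change of -0.10 (95% interval -0.58 to 0.38, edgeR adjusted p = 0.999).

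Setdb1, the H3K9 methyltransferase of the TRIM28 complex (ENSMUSG00000015697.14, chr3:95323525-95357202, minus strand), stood at 11.48, 12.10 and 11.23 TPM in the Fadd knockout and at 12.30, 13.08 and 13.51 TPM with Fadd put back. The knockout libraries lay below the restored ones in TPM but overlapped them in log2 CPM. The fit gave a log2 change of -0.06 (95% interval -0.34 to 0.22, edgeR adjusted p = 1). Setdb1 in the Casp8 line stood at 12.70, 10.94 and 14.21 TPM against 12.49, 10.77 and 10.05 TPM, with a log2 change of 0.18 (95% interval -0.09 to 0.46, edgeR adjusted p = 0.952).

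Atf7ip, which stabilises SETDB1 in the nucleus (ENSMUSG00000030213.12, chr6:136506167-136610862, plus strand), stood at 5.92, 4.57 and 3.44 TPM in the Fadd knockout and at 5.62, 3.89 and 3.37 TPM with Fadd put back. As for Dnmt3a, libraries of the same number moved together in this line. A log2 change of 0.07 (95% interval -0.58 to 0.73, edgeR adjusted p = 1) was fitted. The Casp8 knockout held both a low and the highest value, 3.80, 7.15 and 11.28 TPM, against 5.82, 4.91 and 5.65 TPM, with a log2 change of 0.33 (95% interval -0.33 to 0.99, edgeR adjusted p = 0.991). Atf7ip had the widest range of the members, with the highest library 3.35 times the lowest.

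Morc3, a nuclear ATPase of the MORC family that takes part in silencing endogenous retroviruses (ENSMUSG00000039456.10, chr16:93832121-93876073, plus strand), stood at 23.86, 17.40 and 18.90 TPM in the Fadd knockout and at 20.36, 17.15 and 20.36 TPM with Fadd put back. The log2 change was 0.15 (95% interval -0.18 to 0.47, edgeR adjusted p = 0.941). Morc3 in the Casp8 line stood at 21.97, 21.97 and 22.86 TPM in the knockout and at 24.69, 22.85 and 29.40 TPM where Casp8 was put back. The log2 change there was -0.24 (95% interval -0.57 to 0.08, edgeR adjusted p = 0.951), the smallest p of the members in that line. On log2 CPM Morc3 was the 1 of 10 members whose groups did not overlap in the Casp8 line, against 10.7% of all genes.

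In the Casp8 line edgeR called 0 of the 10 members, and 0.0061% of all genes. At an unadjusted p under 0.05 the count of members was also 0, against 5.67% of all genes. DESeq2 called 0 of the 10 as well, with 0.872% of all genes called. The median over the members was -0.12 and that over all genes 0.01.

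Between the lines, edgeR called 0 of the 10 members, although 19.5% of all genes were called. At an unadjusted p under 0.05 the count was 0 too, against 32.5% of all genes, and DESeq2 called 0, with 25.6% of all genes called. The estimates ran from -0.34 for Dnmt3a to 0.34 for Dnmt3b. The intervals of Dnmt1 (-0.21 to 0.21) and Setdb1 (-0.03 to 0.36) were the narrowest. This comparison depended on the libraries numbered 1. Without those 4, 49.3% of all genes were called and 6 of the 10 members: Dnmt3b at 0.75 and Setdb1 at 0.25 were higher in the Fadd line, and Dnmt3a at -0.93, Atf7ip at -0.59, Morc3 at -0.29 and Uhrf1 at -0.22 lower. With the replicate number as a block within each line, 32.3% of all genes were called and, of the members, Dnmt3a at -0.47 (edgeR adjusted p = 0.0144).

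Of the wider machinery, 59 other genes in 6 lists were in the files and 55 were tested. The lists held partners of TRIM28 and zinc finger proteins, H3K9 and HP1 genes, HUSH and MORC genes, DNA methyltransferase partners, demethylation and methyl-CpG reader genes, and histone chaperones. In both knockout comparisons and in their difference edgeR called 0 of these 55, with 6, 2 and 3 at an unadjusted p under 0.05, where the shares of all genes were 10.3%, 5.67% and 7.4%. The medians were -0.05, 0.00 and 0.00 on the log2 scale. With the replicate number as a block within each line, 1 of the 55 was called in the Fadd line and 0 in the other 2 comparisons. The shares of all genes called were 2.71%, 0.0366% and 1.46%. The gene called was Morc4, of the MORC family, at -0.84 (edgeR adjusted p = 0.0271).

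Without the block, the genes nearest to a call in the Fadd line, list by list, all missed the threshold. Daxx, a chaperone of histone H3.3, had a log2 change of 0.76 (edgeR adjusted p = 0.276), and Cbx1, which encodes the HP1 beta protein that binds methylated H3K9, one of -0.41 (edgeR adjusted p = 0.419). Uhrf2, a relative of Uhrf1, had one of -0.40 (edgeR adjusted p = 0.531), Zfp819, a zinc finger gene, one of 1.56 (edgeR adjusted p = 0.434), and Mbd2, a reader of methylated CpG, one of 0.14 (edgeR adjusted p = 0.912). Atf7ip2, a relative of Atf7ip, had 0 counts in the 3 Fadd knockout libraries, 13 where Fadd was put back, and 96 and 113 in the Casp8 knockout and restored groups (edgeR adjusted p = 0.0802 in the Fadd line).

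Within the Casp8 line the smallest p of each list belonged to Zfp819 at 2.55 (edgeR adjusted p = 0.715, on 11 and 2 counts), Ehmt2 at -0.18 (0.980), Mphosph8 at -0.27 (0.979), Usp7 at -0.28 (0.959), Tet3 at 0.35 (0.981) and Chaf1a at -0.31 (0.870). EHMT2 places H3K9 mono- and dimethylation, MPHOSPH8 is the chromodomain subunit of HUSH, and CHAF1A belongs to the chaperone that deposits histones behind the replication fork. None of these estimates passed the test. For the difference between the knockout effects the smallest p values were those of Hdac1 at -0.31, Cbx1 at -0.47, Hells at 0.27, Tet1 at -1.55 and Daxx at 0.97, and of Atf7ip2, with edgeR adjusted p values from 0.162 to 1.

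Between the lines 3 of the 55 were called higher in the Fadd line and 7 lower, 18.2% against 19.5% of all genes, a share near the background. With the replicate block 6 were called higher and 9 lower, 27.3% against 32.3% of all genes. Mecom, a zinc finger regulator of the PRDM family, was lower at -4.68 (edgeR adjusted p = 0.000445). It stood at 0.373 ± 0.257 and 0.827 ± 0.635 TPM in the Fadd knockout and restored groups and at 17.6 ± 11.7 and 19.5 ± 7.74 TPM in those of the Casp8 line (SD, n = 3 each). Also lower were Morc4 (-0.74), Zbtb33 (-0.67), which encodes the methyl-CpG reader Kaiso, Uhrf2 (-0.55), Mbd1 (-0.34) and Kdm4c (-0.33), an H3K9 demethylase, together with Atf7ip2 by the counts above. Higher were Zfp819 (2.49), Cdca7l (0.36) and H3f3a (0.29), 1 of the 2 genes of histone H3.3. Zfp819 rested on few counts, 57 and 16 in the groups of the Fadd line and 11 and 2 in those of the Casp8 line.

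Since DNMT1 and UHRF1 act at replication, 17 genes of replication and proliferation were set beside them. In both knockout comparisons, in their difference and between the lines edgeR called 0 of the 17. The shares of all genes called were 1.52%, 0.0061%, 0.842% and 19.5%. At an unadjusted p under 0.05 there were 2, 0, 1 and 2 of the 17, against 10.3%, 5.67%, 7.4% and 32.5% of all genes. With the replicate block 1 was called in the Fadd line, Tk1, which encodes thymidine kinase, at -0.47 (edgeR adjusted p = 0.0423). In that fit 2.71% of all genes were called. Between the lines the block called 3, or 17.6%, against 32.3% of all genes. Their summed level was 1121 to 1403 TPM in the Fadd knockout and 1414 to 1484 TPM where Fadd was put back. In the Casp8 line it was 1225 to 1406 against 1339 to 1475 TPM. The sums of the Fadd line did not overlap, by a narrow margin of 1403 to 1414 TPM. Of all single genes, 16.5% did not overlap in that line on log2 CPM, and no such share was computed on TPM. The smallest p in the Fadd line was that of Mcm4, a subunit of the replicative helicase, at -0.40 (edgeR adjusted p = 0.155). The part of these levels in the values of the 10 members was not tested.

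The deposited table of endogenous retrovirus reading frames, with 60983 frames, was summed over all frames and scaled to CPM of gene counts. Which frames are targets of the 10 genes was not tested. The sum was 1333, 1120 and 1066 in the Fadd knockout and 1018, 1017 and 1032 where Fadd was put back. In the Casp8 line it was 922, 1154 and 1602 in the knockout and 996, 972 and 1206 where Casp8 was put back. The sums did not overlap in the Fadd line, with 1066 and 1032 the nearest values, and overlapped in the Casp8 line. Of all single genes, 16.5% in the Fadd line and 10.7% in the Casp8 line did not overlap on log2 CPM. Fadd knockout library 1, with the highest sum of its line, also had the lowest share of counts in protein-coding genes of all libraries, 81.4%. No test was made on these sums, and their relation to the level of Suv39h1 was not tested.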

How the data were processed

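The authors deposited, for each of 12 libraries of total RNA, a gene table with RSEM expected counts, TPM and FPKM, and 1 table of expected counts per endogenous retrovirus reading frame. Per the labels' protocols, libraries were made with a stranded total RNA kit, and RSEM counted reads that STAR 2.7.5a had placed on mm10 after trimming (Trim Galore 0.5.0). How the retrovirus table was counted is not stated in those sources. Spike-in rows (92 of 55665) were left out.

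Expected counts were rounded and tested with edgeR 4.0.16 (quasi-likelihood; R 4.3.3) over all 12 libraries in 4 groups, with filterByExpr at a minimum count of 10, TMM scaling and Benjamini-Hochberg adjustment over 16396 genes. Standard errors and 95% intervals come from the F statistic. Called means an adjusted p under 0.05. The common biological coefficient of variation was 0.370. On simulated data for the comparison in the Fadd line, with 16123 genes, 11 of 99 genes changed 2-fold and 59 of 98 changed 4-fold were called, with 1 false call. Shares of TPM, and in one alternative of FPKM as deposited, were compared by exact two-sided permutation tests (SciPy 1.17.1). DESeq2 1.42.0 and limma 3.58.1 (voom) served as alternatives. Positions come from GENCODE M21 on GRCm38; the ID versions of the 10 members match.

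The members and lists were chosen with earlier results of these data known. Named were all 10 members, in each other list the called genes (at most the 3 with the widest change) or the gene of smallest p, and the 3 genes most correlated with a called member; of the marker lists, sums are given with few genes. Same-numbered libraries deviated together in the Fadd line, their deviations correlating at 0.660, 0.391 and 0.639, against -0.641 to 0.183 for unlike numbers. In the Casp8 line this was weaker, at 0.203, 0.305 and 0.127, against -0.267 to 0.144 for unlike numbers. The labels do not say what the number marks.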

Additional observations from a re-analysis of the deposited data

How the results depend on the processing

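Suv39h1 stayed lower in the Fadd knockout under all 20 alternatives (log2 change -1.01 to -0.79) and was called under 10. It was called by DESeq2 (adjusted p = 7.89e-05), and the count of members called fell from 1 to 0 with a replicate block over all 12 libraries (adjusted p = 0.0535) and with only the 6 libraries of the line (adjusted p = 0.0687). Leaving libraries out gave 0 to 1 members called in that line, 0 to 1 in the Casp8 line, 0 to 1 for the difference between both knockout effects and 0 to 6 between the lines. DESeq2 called 1 for the difference.

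With the replicate block within each line Suv39h1 was called (log2 change -0.90, adjusted p = 0.0228), and between the lines the members called rose from 0 to 1; the block changed no other call among members. Over all genes the block moved the calls from 250 to 444 in the Fadd line, from 1 to 6 in the Casp8 line, from 138 to 239 for the difference and from 3201 to 5294 between the lines, and DESeq2 called 697, 143, 420 and 4203. Causes were not tested. With windows of 2 and 10 Mb around Suv39h1, chosen after seeing the data, the median of its neighbours was -0.89 (38 genes, 12 called lower) and -0.85 (57 genes, 18 called lower).

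Differences of the share of Suv39h1 ranged over -14.8 to -8.73 points in the Fadd line, 0.533 to 4.74 in the Casp8 line and -2.56 to 1.54 between the lines when libraries were left out, and those of Dnmt3a over 5.46 to 14.7, -8.23 to 0.702 and -11.7 to -6.72.

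Of 702 values of the other 9 members, 656 kept direction and side of the threshold, 8 passed it and 38 turned sign, all from estimates of at most 0.33. Suv39h2 in the Fadd line, at 0.00 as fitted, was 0.00088 with DESeq2, 0.00086 with RLE factors and 0.00023 with only the 6 libraries of the line, and Dnmt1 between the lines was 0.0096 with DESeq2 and 0.0096 with RLE factors. When libraries were left out, log2 changes in the Fadd line ranged over -0.16 to 0.21 for Trim28, -0.12 to 0.0017 for Setdb1, -0.25 to 0.27 for Suv39h2, -0.052 to 0.93 for Dnmt3a, -0.32 to 0.14 for Dnmt3b, -0.011 to 0.065 for Uhrf1 and -0.11 to 0.34 for Atf7ip. In the Casp8 line they ranged over -0.36 to 0.023 for Trim28, -0.25 to 0.058 for Suv39h1, -0.30 to 0.020 for Dnmt3a, -0.046 to 0.57 for Dnmt3b and -0.015 to 0.62 for Atf7ip. Those of the difference ranged over -0.061 to 0.49 for Trim28 and -0.53 to 0.087 for Atf7ip, and those between the lines over -0.17 to 0.078 for Trim28, -0.28 to 0.087 for Suv39h2 and -0.041 to 0.039 for Dnmt1.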
